A study of Mus musculus with 6 samples.

Results

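The macrophage and osteoclast genes described here are 36 genes chosen by their symbols, of which 35 were found among the 31613 genes of the deposited count table. They comprise 24 genes of macrophages, 8 genes of osteoclasts and 4 signals through which mesenchymal cells act on both cell types. *Dcstamp*, an osteoclast fusion gene, is the member not analysed here. Counts came from bulk RNA sequencing of mouse dental papilla cells (mDPCs), a tooth germ mesenchyme that gives rise to odontoblasts, collected at postnatal day 6. There were 3 control libraries and 3 libraries of *Dmp1*-Cre;*Setd2*fl/fl mice, called cKO from here on, and RNA of 3 biological replicates was pooled for each library. By the methods the controls are *Setd2*fl/fl without Cre, whereas their labels read wild type. In cKO mice the Cre is driven by *Dmp1*, which is used to target the odontoblast layer, and it removes *Setd2*, the gene of the methyltransferase that trimethylates histone H3 at lysine 36. All mice were on a C57BL/6J background. In such bulk samples, fewer cells of a type and less RNA per cell cannot be told apart. The mice that the study lists per genotype for this collection are fewer than the biological replicates pooled over the libraries of a genotype, so libraries may share animals, and the p-values reflect library-to-library spread only, part of which may be technical.

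Macrophages are resident immune cells of most tissues, the dental papilla included, where they clear dying cells and take part in vessel and tissue remodelling. Osteoclasts are multinucleated cells that form by fusion of precursors of the same lineage and resorb bone, and during tooth development they open the bony crypt around the tooth germ. The growth and survival of both cell types depend on signals from mesenchymal cells. CSF1 and IL-34 are the ligands of the receptor CSF1R. RANKL, encoded by *Tnfsf11*, drives osteoclast formation through the receptor RANK, encoded by *Tnfrsf11a*, and osteoprotegerin, encoded by *Tnfrsf11b*, is a decoy that binds RANKL.

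The libraries held between 18557647 and 19210750 counts. *Setd2* counts were at 95.5 ± 3.14 CPM (counts scaled to library size with TMM factors; SD, n = 3) in control libraries against 98.9 ± 3.07 CPM (SD, n = 3) in cKO libraries, but counts taken over the full gene in all collected cells do not check the deletion. The dental papilla markers *Msx1* and *Barx1* were present in all 6 libraries, and their 8-gene list summed to between 879 and 992 CPM. The summed level of 5 odontoblast markers was between 70634 and 80642 CPM in control libraries. In cKO libraries it was 5798, 3917 and 36371 CPM for replicates 1, 2 and 3. Replicate 3 of both groups stood apart in composition, with 6 dental epithelium markers summing to 30119 CPM (control) and 49807 CPM (cKO), against between 2181 and 7243 CPM in the other 4 libraries. Results are therefore given also without replicate 3 of both groups. The control spread in that fit comes only from control replicates 1 and 2, the closest pair of libraries of a group. Its p-values may therefore be too small. The 4 muscle markers summed to at most 0.622 CPM. The T-cell gene *Cd3e* reached at most 0.106 CPM, but 4 of the 13 lymphoid and mast cell markers passed the filter on low counts. These 4, named after their values were seen, were *Kit* (261 to 359 CPM), *Cd4* (8.85 to 13.5 CPM), *Cd79b* (4.21 to 5.16 CPM) and *Cd79a* (0.543 to 1.13 CPM). *Cd3e* therefore does not stand for the list.

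**Figure D1:**
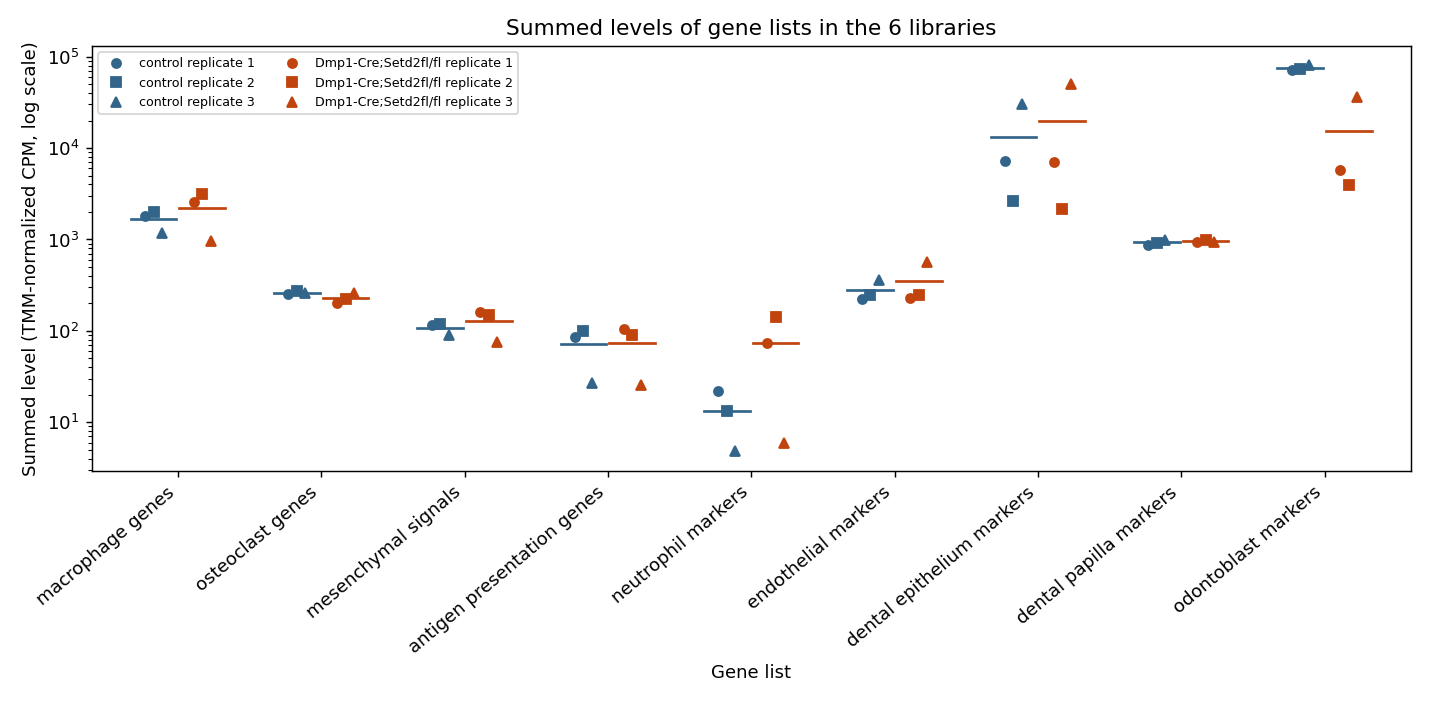
Summed levels of 9 gene lists in each of the 6 libraries, as TMM-normalized CPM on a log axis. Blue symbols are control and red symbols are cKO libraries, symbol shape gives the replicate number, and horizontal bars are group means. The macrophage genes sum lowest in replicate 3 of both groups, where the dental epithelium markers sum highest.

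All 24 macrophage genes passed the filter on low counts. Their summed level was 1824, 2023 and 1185 CPM in control replicates 1, 2 and 3, and 2544, 3130 and 968 CPM in cKO replicates 1, 2 and 3. The groups overlapped, because replicate 3 of the cKO group had the lowest sum of all 6 libraries while replicates 1 and 2 had the 2 highest. *Lgals3* was the only macrophage gene that was higher at the study's thresholds, which are an unadjusted p under 0.05 with a log2 fold change of 0.58 or more in either direction, and none was lower. Of all 16519 genes tested by edgeR's quasi-likelihood test, 181 (1.1%) were higher and 448 (2.71%) were lower at these thresholds. The median log2 fold change of the 24 genes was 0.32, with 20 of 24 above 0, and the median over all genes tested was 0.02. After Benjamini-Hochberg adjustment over all genes, edgeR called 0 of the 31 members tested and 0 of all genes (0%) at an adjusted p under 0.05. At an unadjusted p under 0.05 edgeR gave 1 member and 1252 genes in all. DESeq2 also called 0 members after adjustment, with 117 lower and 24 higher genes in all. Limma voom with quality weights called 936 lower and 375 higher genes, among them 4 members, *Lgals3*, *Trem2* and *Tnfrsf11b* higher and *Ctsk* lower. Voom weighted cKO replicate 1 far above cKO replicates 2 and 3, so its cKO side rests mostly on 1 library.

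*Lgals3* encodes galectin-3, a sugar-binding protein abundant in macrophages and also made by epithelial and other cells. It was at 4.40, 3.95 and 3.97 CPM in control replicates 1, 2 and 3 and at 9.09, 15.9 and 5.43 CPM in cKO replicates 1, 2 and 3. The groups did not overlap, and the cKO libraries varied far more among themselves than the control libraries did. Its log2 fold change was 1.30 (SE 0.38, adjusted p = 0.625 by edgeR). It was 1.58 without replicate 3 of both groups (adjusted p = 0.00812, the lowest of the alternatives run) and 0.82 without cKO replicate 2 (adjusted p = 1.00). *Lgals3* was the only macrophage gene whose groups did not overlap, against 1200 genes (7.26%) with all cKO libraries above all control libraries and 1319 (7.98%) with the reverse among all genes tested. The 9 neutrophil markers moved in the same libraries, summing to 22.0, 13.4 and 4.82 CPM in control and 72.9, 143 and 5.97 CPM in cKO replicates 1, 2 and 3. The 6 dental epithelium markers summed highest in replicate 3 of both groups, a sum carried by the enamel matrix genes. Single markers of that list differed. *Epcam*, for epithelial adhesion, was at 11.1, 8.05 and 10.7 CPM in control and at 2.06, 2.07 and 10.9 CPM in cKO replicates 1, 2 and 3. *Krt5*, an epithelial keratin, was at 176, 126 and 522 CPM in control and at 180, 175 and 777 CPM in cKO libraries. Both are named after their values were seen. Of the 6 markers, 2 were higher in cKO for replicate 1 and 3 for replicate 2, so *Epcam* does not stand for the list. The part of other cells in the *Lgals3* difference was not tested.

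The defining receptors of macrophages did not separate the groups. *Csf1r*, the CSF1 receptor on which macrophages depend, was at 209, 238 and 213 CPM in control and at 241, 244 and 163 CPM in cKO replicates 1, 2 and 3. Its log2 fold change was -0.03 (SE 0.17, adjusted p = 0.979). *Csf1r* overlaps *Hmgxb3* on the opposite strand, and counting without regard to strand cannot tell their shared reads apart. *Adgre1*, which encodes the macrophage surface protein F4/80, was at 65.0, 68.6 and 44.0 CPM in control and 72.8, 76.8 and 29.8 CPM in cKO libraries (log2 fold change 0.01, SE 0.36, adjusted p = 0.994). Both genes were lowest in cKO replicate 3 and a little higher in cKO replicates 1 and 2 than in the same-numbered controls. *Cd68*, a lysosomal protein of phagocytes, was at 26.2 ± 1.05 CPM (SD, n = 3) in control libraries against 25.5 ± 4.37 CPM (SD, n = 3) in cKO libraries. *Ptprc*, the pan-leukocyte gene for CD45, was at 30.3, 31.9 and 13.9 CPM in control and 44.0, 37.0 and 13 CPM in cKO libraries (log2 fold change 0.30, SE 0.50, adjusted p = 0.889). Replicate 3 held less than 50% of the *Ptprc* level of replicates 1 and 2 in each group, with ratios of 0.448 and 0.320 to their mean.

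**Figure D2:**
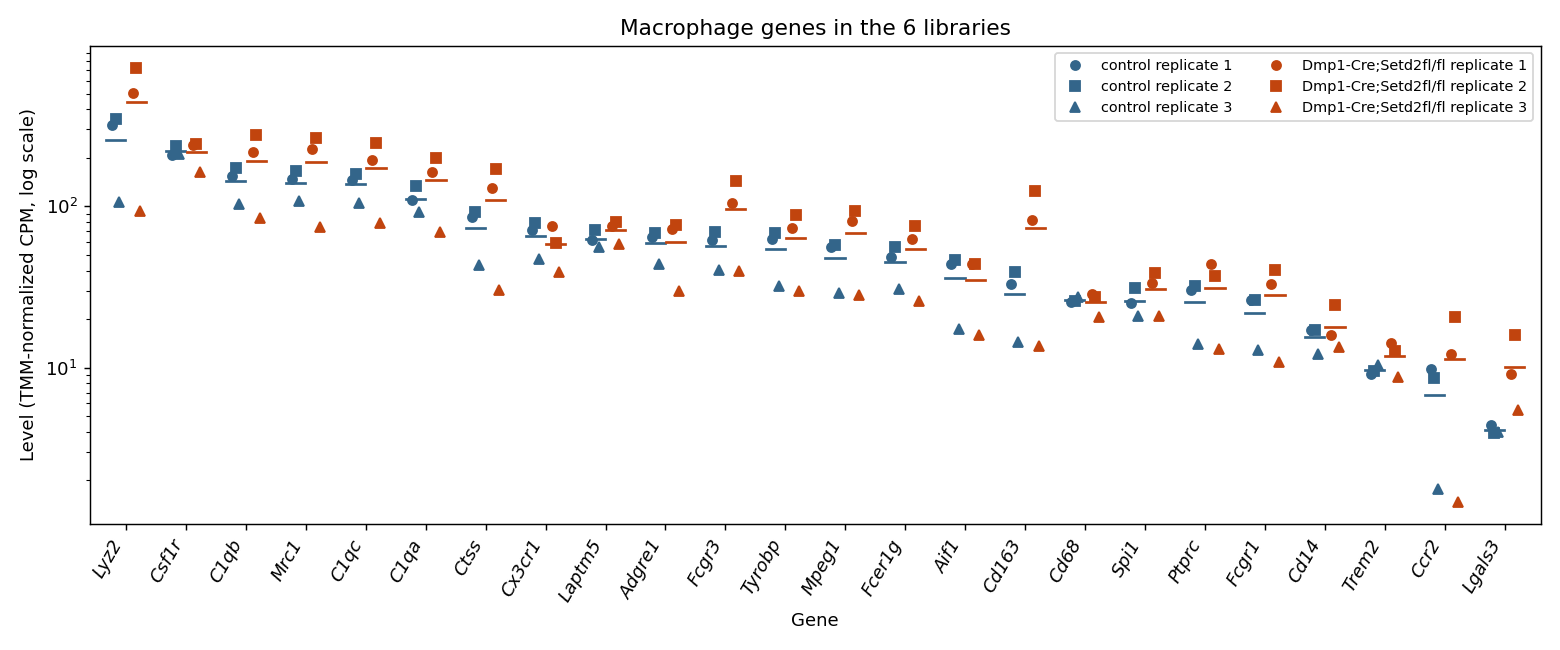
Levels of the 24 macrophage genes in each library, as TMM-normalized CPM on a log axis, ordered by the control mean. Blue symbols are control and red symbols are cKO libraries, symbol shape gives the replicate number, and horizontal bars are group means. The triangles of replicate 3 lie lowest in the cKO group for all 24 genes and in the control group for 20.

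The same pattern over libraries ran through most of the list. cKO replicate 3 was the lowest of its group for 24 of 24 macrophage genes, and control replicate 3 for 20 of 24, compared with 38.5% and 43.6% of all genes tested. The spread between libraries differed greatly from gene to gene. For *Csf1r*, *Cd68*, *Laptm5*, *Trem2* and *Spi1*, the highest of the 6 libraries was less than 2 times the lowest. For *Lyz2*, *Cd163* and *Ccr2* it was 7.80, 9.14 and 14.0 times the lowest. *Laptm5* encodes a lysosomal membrane protein of blood cells, *Trem2* a lipid receptor of macrophages and *Spi1* the transcription factor PU.1.

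Between libraries of the same number, macrophage genes were mostly higher in cKO for replicates 1 and 2 and lower for replicate 3. The difference in log2 CPM was above 0 for 23 of 24 genes in replicate 1 (median 0.41) and for 22 of 24 in replicate 2 (median 0.55). In replicate 3 it was above 0 for 4 of 24 (median -0.24). Over all genes tested, the shares above 0 were 50.1%, 50.3% and 53.6%. The sign turned between replicate 3 and both other numbers for 18 of the 24 genes. The deviation of the libraries by number was shared by many other genes, so the replicate number was also fitted as a block. With the block, 2 macrophage genes were higher at the study's thresholds, *Lgals3* (log2 fold change 1.19, SE 0.29) and *Fcgr3*, and again none was lower. Of all genes, 339 (2.05%) were higher and 722 (4.37%) were lower in that fit. No member passed an adjusted p under 0.05 with the block in edgeR, where 161 genes (0.975%) did.

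**Figure D3:**
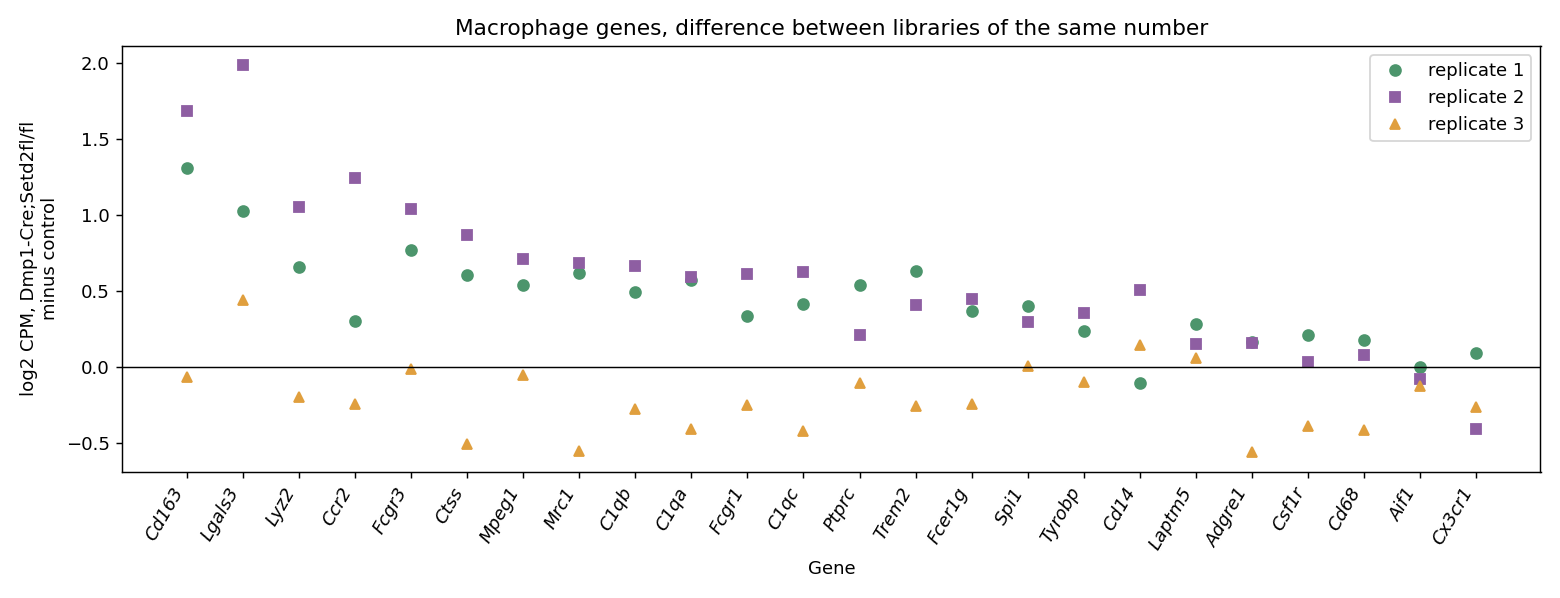
Difference in log2 CPM (prior count 2) between the cKO and the control library of the same replicate number, for the 24 macrophage genes ordered by log2 fold change over all libraries. Circles, squares and triangles are replicates 1, 2 and 3. The triangles lie under 0 for 20 genes and above 0 for *Lgals3*, *Cd14*, *Laptm5* and *Spi1*.

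Fc receptors, which bind antibody-coated targets, and their signalling adaptors formed 1 group of members. *Fcgr3* was at 61.5, 69.4 and 40.1 CPM in control and at 105, 143 and 39.8 CPM in cKO replicates 1, 2 and 3. Replicates 1 and 2 of the cKO group lay above every control library, and replicate 3 lay at the level of its control. By edgeR the log2 fold change was 0.75 (SE 0.45, adjusted p = 0.708), and 0.61 with the replicate block (SE 0.20, adjusted p = 0.225). *Fcgr3* has close paralogs, and its counts are uncertain to the extent that reads were shared with them. *Fcgr2b* and *Fcgr4*, named after their values were seen, had the same order of libraries, with 50.6, 56.5 and 25.0 CPM in control against 102, 127 and 19.7 CPM in cKO libraries for *Fcgr2b*. *Fcgr1* was at 21.8 ± 7.78 CPM (SD, n = 3) in control libraries against 28.0 ± 15.4 CPM (SD, n = 3) in cKO libraries. The adaptors *Fcer1g* and *Tyrobp* had log2 fold changes of 0.29 (SE 0.41) and 0.23 (SE 0.44).

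Complement C1q, which tags dying cells and debris for uptake, is built from 3 chains whose genes *C1qb*, *C1qc* and *C1qa* lie side by side on chromosome 4 (136880129 to 136898803 by the positions of the table), a span of 18.7 kb. *C1qa* was at 110.1, 133 and 92.4 CPM in control and at 164, 201 and 69.6 CPM in cKO replicates 1, 2 and 3. cKO replicates 1 and 2 lay above all control libraries and replicate 3 below them. The log2 fold changes were 0.37 (SE 0.37) for *C1qa*, 0.42 (SE 0.42) for *C1qb* and 0.34 (SE 0.40) for *C1qc*, with adjusted p = 0.804, 0.805 and 0.837. The 3 genes kept 1 order of libraries, with cKO replicate 2 highest and cKO replicate 3 lowest. Per kb of exon, *C1qa* was among the highest macrophage genes, at 69.5 CPM per kb in control, beside *Tyrobp* at 79.8 and *Lyz2* at 77.9 CPM per kb. By CPM alone the control means were 144 for *C1qb*, 137 for *C1qc* and 112 for *C1qa*, so the order within C1q depends on the exon lengths used.

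Scavenger receptors and lysosomal enzymes of resident macrophages also varied between libraries, *Cd163* and *Lyz2* more than *Mrc1* and *Ctss*. *Cd163*, the haemoglobin scavenger receptor, was at 33.0, 39.0 and 14.3 CPM in control and at 82.0, 125 and 13.7 CPM in cKO replicates 1, 2 and 3. *Lyz2*, which encodes lysozyme, was at 321, 349 and 106 CPM in control and at 507, 726 and 93.0 CPM in cKO replicates 1, 2 and 3. In both genes, which are given in full after their values were seen, the cKO libraries of replicates 1 and 2 lay above every control library and the pair of replicate 3 lay together at the bottom. The log2 fold changes of 1.35 (SE 0.76, adjusted p = 0.696) for *Cd163* and 0.77 (SE 0.75, adjusted p = 0.801) for *Lyz2* did not pass the thresholds. *Mrc1*, the mannose receptor CD206, was at 140.4 ± 29.2 CPM (SD, n = 3) in control libraries against 189 ± 101 CPM (SD, n = 3) in cKO libraries. *Ctss*, the lysosomal protease cathepsin S, was at 73.8 ± 26.9 CPM (SD, n = 3) and 110.0 ± 71.8 CPM (SD, n = 3). *Mpeg1*, which encodes the pore-forming perforin-2, was at 47.7 ± 16.0 CPM (SD, n = 3) and 68.0 ± 35.0 CPM (SD, n = 3). Its log2 fold change with the replicate block was 0.41 (adjusted p = 0.222), under the fold limit.

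The remaining macrophage genes did not pass the thresholds either. *Ccr2*, the receptor that draws monocytes from blood, was at 6.72 ± 4.34 CPM (SD, n = 3) in control libraries against 11.4 ± 9.52 CPM (SD, n = 3) in cKO libraries, and replicate 3 held 0.191 and 0.0899 times the mean of replicates 1 and 2. *Cx3cr1*, the fractalkine receptor of resident macrophages, had a log2 fold change of -0.17 (SE 0.28), but its interval in the table overlaps 5 other genes with an average of 10 or more counts, *Wdr48* and *Gorasp1* among them, so its counts are uncertain. *Aif1*, an actin-binding protein of macrophages, had a log2 fold change of -0.05 (SE 0.49). *Cd14*, the lipopolysaccharide co-receptor, had 0.21 (SE 0.26), *Trem2* 0.29 (SE 0.21), *Spi1* 0.26 (SE 0.25) and *Laptm5* 0.17 (SE 0.16).

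Without replicate 3 of both groups, 9 of 24 macrophage genes were higher at an adjusted p under 0.05 in edgeR, and none was lower. In that fit of 4 libraries, 389 of 16708 genes (2.33%) were higher and 749 (4.48%) were lower. The 9 genes were *C1qa*, *C1qb*, *Cd163*, *Ctss*, *Fcgr3*, *Lgals3*, *Lyz2*, *Mpeg1* and *Mrc1*. *Cd163* had a log2 fold change of 1.53 (adjusted p = 0.00133) and *Fcgr3* of 0.92 (adjusted p = 0.00738). *Csf1r* at 0.13, *Cd68* at 0.14 and *Adgre1* at 0.17 were not called there. In this comparison of 2 libraries against 2, the median of the 24 genes was 0.51, against 0.01 over all genes. The 2 control libraries lay far closer to each other than the 2 cKO libraries did, so these adjusted p-values may be too small. The same 4 libraries differ in neutrophil markers, of which 5 of 6 tested in all libraries were also higher there, and in odontoblast markers, of which 5 of 5 were lower. The part of these in the macrophage result was not tested.

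**Figure D4:**
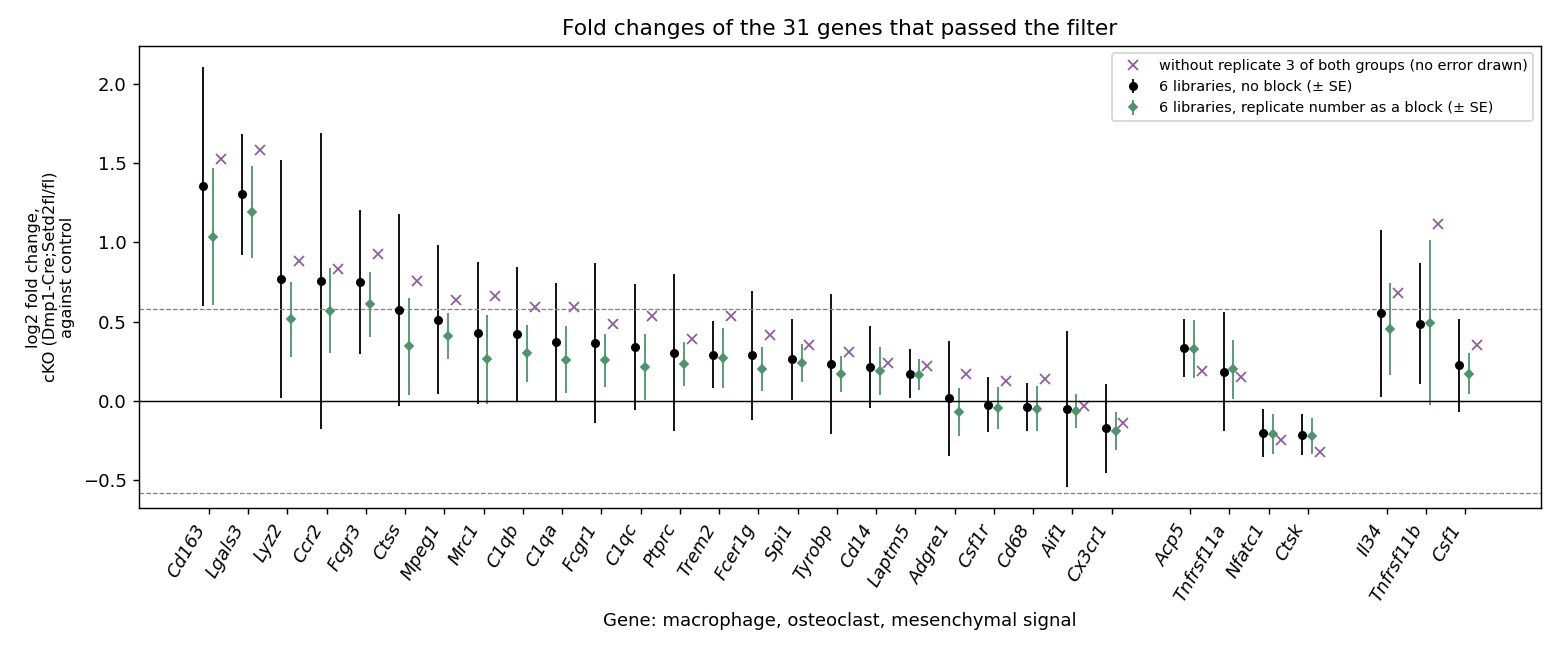
Log2 fold change of cKO against control for the 31 members that passed the filter, grouped as macrophage genes, osteoclast genes and mesenchymal signals. Circles with SE are the fit to 6 libraries, diamonds with SE the fit with the replicate number as a block, crosses the fit without replicate 3 of both groups, and dashed lines the fold limit of 0.58. *Cd163* and *Lgals3* have the largest values, and the standard errors of most macrophage genes shrink with the block.

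Promoters of 5 members are shown. Of these, 4 were higher in cKO for replicates 1 and 2 and lower for replicate 3, and *Lgals3*, beside them, was higher for all 3. PU.1, encoded by the member *Spi1*, is the transcription factor through which many macrophage promoters act. Many of its binding sites hold the letters GAGGAA. Sites with other letters exist and were not searched, and a match is not a shown binding site. Sequences are RefSeq promoter windows of 300 bases around the gene start in build GRCm38.p6, written 5′ to 3′ on the gene's strand, and 24 of the 36 members had one. GAGGAA was found on either strand in the windows of 11 of 18 macrophage genes (61.1%) and of 28.3% of all 27025 genes with a window. Capitals mark it in the lines that follow, as GAGGAA or, on the other strand, as TTCCTC. *C1qb* (chr4:136886151-136886450, minus strand) and *C1qc* (chr4:136892865-136893164, minus strand) are neighbours of the same cluster, with 1 match each. *Mrc1* (chr2:14229164-14229463, plus strand) had 3 matches. *Cd163* (chr6:124304401-124304700, plus strand) and *Lgals3* (chr14:47373610-47373909, plus strand), the genes with the largest log2 fold changes, had 0 matches, which says only that these letters are not in this window. By the positions of the table *Lgals3* begins at 47367751, so its window lies at a RefSeq start inside the counted gene. That also holds for some windows not shown, such as that of *Fcgr3*.
C1qb: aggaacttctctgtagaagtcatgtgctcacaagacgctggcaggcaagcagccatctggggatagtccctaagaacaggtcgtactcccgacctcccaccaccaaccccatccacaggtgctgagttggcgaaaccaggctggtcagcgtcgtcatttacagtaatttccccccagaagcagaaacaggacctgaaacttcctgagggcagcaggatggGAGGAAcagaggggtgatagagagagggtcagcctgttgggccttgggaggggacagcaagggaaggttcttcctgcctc
C1qc: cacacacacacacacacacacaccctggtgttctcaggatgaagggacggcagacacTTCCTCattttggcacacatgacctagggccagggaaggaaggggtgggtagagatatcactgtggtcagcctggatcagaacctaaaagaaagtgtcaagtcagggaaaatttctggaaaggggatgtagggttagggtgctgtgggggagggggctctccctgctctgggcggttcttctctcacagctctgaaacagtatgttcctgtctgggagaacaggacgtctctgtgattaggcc
Mrc1: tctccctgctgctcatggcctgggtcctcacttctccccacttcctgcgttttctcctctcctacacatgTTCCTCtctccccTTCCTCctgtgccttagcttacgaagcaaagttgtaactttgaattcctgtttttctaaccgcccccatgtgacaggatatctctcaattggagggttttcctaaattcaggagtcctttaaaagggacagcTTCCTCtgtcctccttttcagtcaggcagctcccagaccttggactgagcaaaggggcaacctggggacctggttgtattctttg
Cd163: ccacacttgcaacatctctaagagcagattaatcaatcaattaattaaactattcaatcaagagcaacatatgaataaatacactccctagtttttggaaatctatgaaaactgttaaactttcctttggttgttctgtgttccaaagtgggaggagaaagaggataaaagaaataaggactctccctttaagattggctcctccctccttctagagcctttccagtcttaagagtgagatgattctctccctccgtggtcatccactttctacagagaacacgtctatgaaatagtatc
Lgals3: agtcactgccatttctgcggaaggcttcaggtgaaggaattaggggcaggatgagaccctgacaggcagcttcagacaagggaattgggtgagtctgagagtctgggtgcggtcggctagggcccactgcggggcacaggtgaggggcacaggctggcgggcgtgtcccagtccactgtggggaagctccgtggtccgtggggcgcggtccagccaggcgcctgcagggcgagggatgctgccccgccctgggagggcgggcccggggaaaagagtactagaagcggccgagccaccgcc

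Of the 7 osteoclast genes found, 4 passed the filter on low counts, and none was higher or lower at the study's thresholds or at an unadjusted p under 0.05 in edgeR. Their median log2 fold change was -0.01. The list was dominated by *Ctsk*, which encodes the collagen-cleaving protease cathepsin K of osteoclasts and is also made by fibroblasts and other mesenchymal cells. *Ctsk* was at 217, 239 and 227 CPM in control and at 171, 191 and 225 CPM in cKO replicates 1, 2 and 3. Replicates 1 and 2 of the cKO group lay below all control libraries, and replicate 3 lay at the control level. The log2 fold change was -0.22 (SE 0.13, adjusted p = 0.703), and -0.32 without replicate 3 of both groups (adjusted p = 0.150). The odontoblast markers were likewise lowest in cKO replicates 1 and 2, at 5798 and 3917 CPM in sum, and their part in the *Ctsk* values was not tested.

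*Acp5*, which encodes the osteoclast phosphatase TRAP, ran the other way. It was at 6.05, 6.32 and 5.78 CPM in control and at 6.60, 7.42 and 8.85 CPM in cKO replicates 1, 2 and 3. The groups did not overlap, but the lowest cKO library was only just above the highest control library. A log2 fold change of 0.33 was fitted (SE 0.19, adjusted p = 0.696). It was 0.19 without replicate 3 of both groups (adjusted p = 0.565). Per kb of exon, *Acp5* was at 1.38 and *Ctsk* at 77.3 CPM per kb in control.

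The receptor RANK and its target factor were neither higher nor lower at the study's thresholds. *Tnfrsf11a*, for RANK, was at 9.18, 8.11 and 4.08 CPM in control and at 8.37, 10.8 and 5.16 CPM in cKO replicates 1, 2 and 3. As for most macrophage genes, replicate 3 was the lowest of each group. The log2 fold change was 0.18 (SE 0.38, adjusted p = 0.912). *Nfatc1*, the transcription factor that RANK induces in osteoclasts and that vessel and valve cells use as well, was at 20.3 ± 1.72 CPM (SD, n = 3) in control libraries against 17.6 ± 2.52 CPM (SD, n = 3) in cKO libraries, with a log2 fold change of -0.20 (SE 0.15, adjusted p = 0.738).

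The genes of cell fusion and of mature osteoclasts were near the limit of detection and did not pass the filter. *Ocstamp*, a fusion gene, had 3, 4 and 2 counts in control and 11, 8 and 3 counts in cKO replicates 1, 2 and 3. *Atp6v0d2*, a subunit of the proton pump that acidifies the resorption pit, had 10, 8 and 4 counts in control and 6, 4 and 16 counts in cKO libraries. *Oscar*, an osteoclast co-receptor, had 12, 9 and 14 counts in control and 6, 5 and 6 counts in cKO libraries. The *Oscar* groups did not overlap, with all cKO libraries lower. When edgeR was run with no filter on low counts, the log2 fold change of *Oscar* was -1.09 (adjusted p = 0.775), and it passed the study's thresholds. No difference in these 3 genes could be shown at this depth after adjustment.

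**Figure D5:**
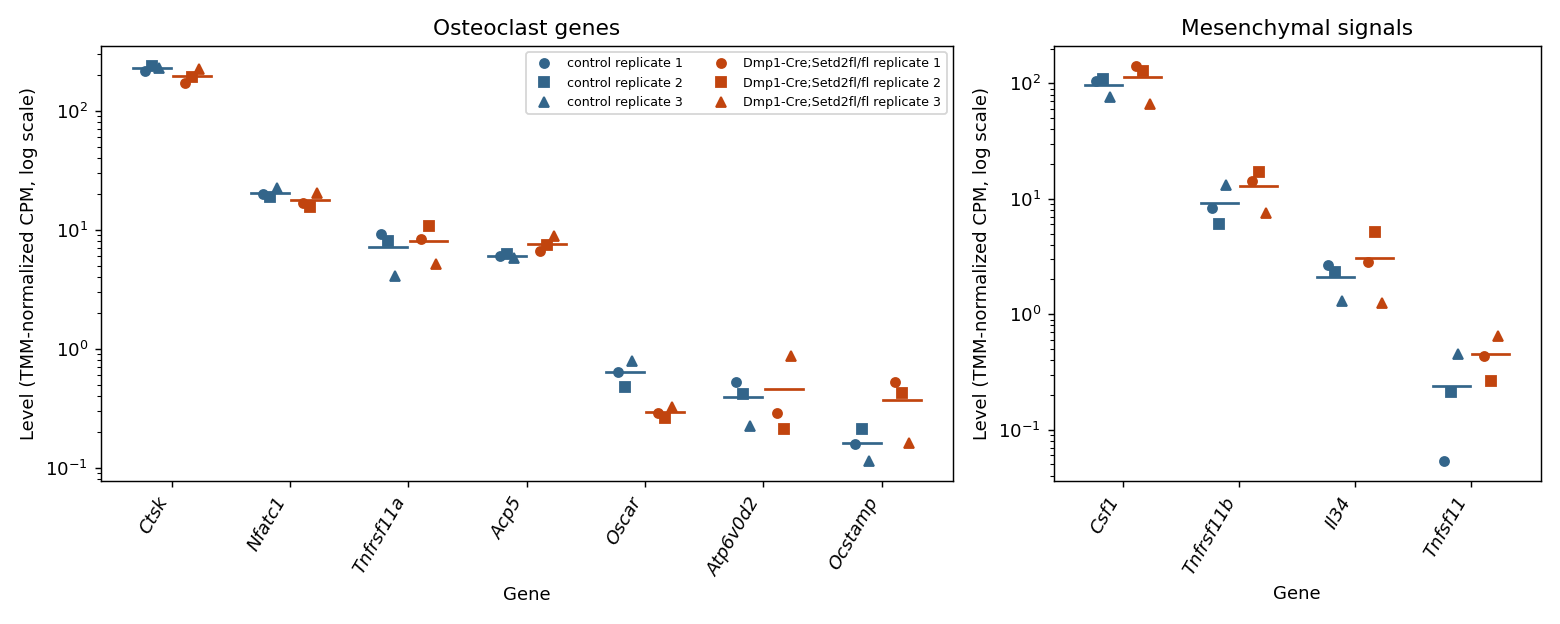
Levels of the 7 osteoclast genes (left) and the 4 mesenchymal signals (right) in each library, as TMM-normalized CPM on log axes, ordered by the control mean. Blue symbols are control and red symbols are cKO libraries, symbol shape gives the replicate number, and bars are group means. *Ctsk* stands far above the other osteoclast genes, and *Oscar*, *Atp6v0d2* and *Ocstamp* stay under 1 CPM.

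None of the 4 mesenchymal signals was higher or lower at the study's thresholds in edgeR, or at an unadjusted p under 0.05. The 3 that passed the filter all had log2 fold changes above 0, with a median of 0.49. *Csf1*, the main growth factor of macrophages, was at 104, 109.6 and 75.5 CPM in control and at 142, 129 and 66.8 CPM in cKO replicates 1, 2 and 3. cKO replicates 1 and 2 lay above all control libraries and replicate 3 below them, as for the C1q genes. *Csf1* had a log2 fold change of 0.22 (SE 0.29, adjusted p = 0.854). *Il34*, the second ligand of CSF1R, was at 2.65, 2.32 and 1.30 CPM in control and at 2.82, 5.14 and 1.25 CPM in cKO libraries. Only cKO replicate 2 stood clearly above the control libraries (log2 fold change 0.55, SE 0.53, adjusted p = 0.795). Per kb of exon, *Csf1* was 29.9 times as high as *Il34* in control and 23.8 times as high in cKO libraries.

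*Tnfsf11*, for RANKL, did not pass the filter, with 1, 4 and 8 counts in control and 9, 5 and 12 counts in cKO replicates 1, 2 and 3. The counts of the groups overlapped, and no difference was detectable at this depth (adjusted p = 0.775 by edgeR with no filter on low counts). *Tnfrsf11b*, for its decoy osteoprotegerin, was at 8.38, 6.00 and 13.3 CPM in control and at 14.2, 16.9 and 7.60 CPM in cKO replicates 1, 2 and 3. The replicates disagreed in direction, with cKO higher in replicates 1 and 2 and lower in replicate 3. The log2 fold change was 0.49 (SE 0.38, adjusted p = 0.750), and 1.12 without replicate 3 of both groups (adjusted p = 0.00992). Unlike *Csf1*, *Tnfrsf11b* was highest in replicate 3 among the control libraries. Per kb of exon, osteoprotegerin was at 3.06 CPM per kb and RANKL at 0.107 CPM per kb in control, and at 4.28 and 0.200 CPM per kb in cKO libraries.

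Other genes of the same cells gave few calls over all 6 libraries. Among 18 further genes of resident macrophages, none was higher or lower at the study's thresholds in edgeR, with 1 at an unadjusted p under 0.05. With the replicate block 4 were higher and 1 was lower. *Vsig4*, a complement receptor of resident macrophages, was at 1.27, 3.16 and 0.510 CPM in control and 4.83, 8.75 and 1.68 CPM in cKO libraries, and was higher in each numbered pair (adjusted p = 0.0265 with the block). *Apoe*, the lipid carrier, was at 969 ± 88.3 CPM (SD, n = 3) in control libraries against 1597 ± 696 CPM (SD, n = 3) in cKO libraries (adjusted p = 0.193 with the block). *Msr1*, a scavenger receptor, had a log2 fold change of 0.61 with the block (adjusted p = 0.104). *Timd4*, a receptor for dying cells, was the lower gene, with a log2 fold change of -0.65 with the block (adjusted p = 0.232). Without replicate 3 of both groups, *Apoe*, *Cbr2*, *F13a1* and *Msr1* were among the higher genes and *Cd209f* was lower at an adjusted p under 0.05 in edgeR, where *Cbr2*, *F13a1* and *Cd209f* are named after their values were seen.

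Among 23 further myeloid genes, 22 passed the filter and *Gpnmb*, a membrane glycoprotein of lipid-laden macrophages, was higher at the study's thresholds. It was at 2.23, 2.26 and 3.46 CPM in control and at 6.17, 6.95 and 3.37 CPM in cKO replicates 1, 2 and 3, with a log2 fold change of 1.05 (SE 0.34, adjusted p = 0.626). Replicates 1 and 2 of the cKO group were above all control libraries, and replicate 3 was not. Without replicate 3 of both groups, *Gpnmb* had a log2 fold change of 1.55 (adjusted p = 0.00311), and *Ccr1*, *Ncf1* and *Plek*, named after their values were seen, were the other 3 of the 22 genes higher at an adjusted p under 0.05. *Chil3*, also named after its values were seen, failed the filter over 6 libraries but was tested and higher there (log2 fold change 5.58, adjusted p = 0.0042 by edgeR). It had 5, 3 and 0 counts in control and 112, 293 and 0 counts in cKO replicates 1, 2 and 3. *Gpnmb* lost the call when control replicate 1 or 2 or cKO replicate 1 or 2 was left out, with log2 fold changes between 0.85 and 0.96. None of the 5 antigen presentation genes tested was called by edgeR, also at an unadjusted p under 0.05, and their 9-gene list summed to 27.1 and 25.5 CPM in replicate 3 of control and cKO, against between 86.1 and 106 CPM in the other 4 libraries. None of 20 further osteoclast genes tested, with functions in acid secretion, adhesion and RANK signalling, was called in edgeR, or had an unadjusted p under 0.05, and their median log2 fold change was 0.08. Without replicate 3 of both groups 1 of them was lower at an adjusted p under 0.05 in edgeR. It was *Itgb3*, named after its values were seen, which encodes the integrin beta subunit through which osteoclasts attach to bone. *Itgb3* was at 22.9, 24.3 and 23.9 CPM in control and at 12.5, 14.4 and 32.0 CPM in cKO replicates 1, 2 and 3. Its log2 fold change was -0.80 (adjusted p = 0.00886) without replicate 3 of both groups and -0.27 (adjusted p = 0.849) over all 6 libraries, in which cKO replicate 3 was the highest.

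Among 21 further signals to these cells, 16 passed the filter and 2 were lower. *Cx3cl1* encodes fractalkine, the ligand of the macrophage receptor CX3CR1. It was at 21.6, 23.7 and 24.9 CPM in control and at 13.8, 10.2 and 15.9 CPM in cKO replicates 1, 2 and 3. Every cKO library lay below every control library, and the difference was present in each numbered pair. The log2 fold change was -0.81 (SE 0.18, adjusted p = 0.558 by edgeR), and the adjusted p was 0.0424 with the replicate block. Over the alternatives run, the log2 fold change lay between -0.96 and -0.66 and the adjusted p between 0.00514 and 1.00. *Vegfa*, the vessel growth factor that also attracts osteoclast precursors, was at 137 ± 3.63 CPM (SD, n = 3) in control libraries against 91.0 ± 26.7 CPM (SD, n = 3) in cKO libraries (log2 fold change -0.59, SE 0.21, adjusted p = 0.626). The *Vegfa* call was lost with each library left out but cKO replicate 3, and its log2 fold change was -0.38 without cKO replicate 2. With the block 3 monocyte chemokine genes were also higher at the study's thresholds, *Ccl12* at a log2 fold change of 0.75 (SE 0.26, adjusted p = 0.232), *Ccl2* at 0.69 (SE 0.27, adjusted p = 0.237) and *Ccl7*, named after its values were seen, at 0.86 (SE 0.23, adjusted p = 0.125). All 3 were lowest in replicate 3 of both groups. Without replicate 3 of both groups, *Ccl12*, *Cxcl12* and *Sfrp1* were higher and *Cx3cl1* and *Vegfa* lower at an adjusted p under 0.05 in edgeR, where *Cxcl12* and *Sfrp1* are named after their values were seen. Their log2 fold changes there were 1.04 (adjusted p = 0.0142) for *Ccl12*, 0.89 (adjusted p = 0.0179) for *Cxcl12* and 0.56 (adjusted p = 0.0177) for *Sfrp1*.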

How the data were processed

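Counts were taken from 1 deposited table of 31613 genes. The authors used HISAT2 for alignment and HTSeq, ignoring strand, for counting; the deposited values are whole-number counts, not normalized. Bowtie2, DESeq2 and GRCm39 are listed as well in the processing notes of the submitters, without versions. Further columns hold the authors' own DESeq2 comparison (a mean, fold changes and p-values) and were not used. Positions are those of the table, of which 1.3% share a start or end with a GRCm39 annotation and 47.4% with RefSeq GRCm38.p6.

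edgeR 4.0.16 in R 4.3.3 was used (filterByExpr with a minimum count of 10, TMM, quasi-likelihood F test with robust fitting, and adjustment by Benjamini-Hochberg over the 16519 genes tested). Levels are TMM-scaled CPM. Per-kb levels divide the mean CPM by the union of GENCODE vM39 exons. Few positions of the table match that annotation, so all per-kb levels and their ratios are approximate. log2 CPM used a prior count of 2. Alternatives were DESeq2 1.42.0, limma 3.58.1 voom with quality weights, size factors by RLE, library sizes that omit the 100 highest genes, no filter, a strict filter of 10 counts in every library, the replicate block, each library left out, and replicate 3 left out of both groups. The fits were also run on simulated data. Libraries were drawn independently there, with no effect of replicate number, so that run does not check the fits for such an effect.

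Members and gene lists were chosen with earlier results of these data known. Values in every library are given for the defining genes, for members called or with groups that do not overlap, and for members that failed the filter. Genes that are not members are named from fixed lists where called at the study's thresholds in the fit with or without the block, at most 4 a list by the smallest p without the block, and genes named outside these rules are marked as chosen after their values were seen. Replicate numbers come from the sample labels. The labels do not state a pairing. Deviations from the group means correlated between same-numbered libraries at 0.453, 0.465 and 0.663 for numbers 1, 2 and 3, so libraries of 1 number were treated as pairs. Libraries 1 and 2 correlated across numbers as well, at 0.455 and 0.380, so these correlations do not tell numbers 1 and 2 apart. Depth ranged from 18557647 to 19210750 counts, and no libraries of a group agreed within sampling noise. Control replicates 1 and 2 came closest, with a chi-square per degree of freedom of 5.68. It was between 30.4 and 172 for the other pairs of a group. Spread between libraries was 25.3% (coefficient of variation).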

Additional observations from a re-analysis of the deposited data

How the results depend on the processing

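The counts of called macrophage genes depended most on replicate 3 of the cKO group. Without cKO replicate 3, 11 macrophage genes passed the study's thresholds as higher, and 2 signals (*Il34* and *Tnfrsf11b*) were higher. *Lgals3* passed an adjusted p under 0.05 in edgeR there. Of all 16865 genes tested in that fit, 677 were higher and 1161 lower at the study's thresholds. An adjusted p under 0.05 in edgeR was reached by 114 higher and 447 lower genes. Over all libraries left out in turn, the counts of members ranged from 1 to 11 for macrophage genes, 0 to 2 for signals and 0 to 1 for adjusted calls. The count of lower osteoclast genes ranged from 0 to 1, where the gene is *Oscar*, lower without cKO replicate 3 or control replicate 2, and their median log2 fold change ranged from -0.33 to 0.054. With replicate 3 left out of both groups, the study's thresholds gave 10 higher macrophage genes and 1 higher signal, and 10 members passed an adjusted p under 0.05. Limma voom with quality weights gave 3 higher macrophage genes, 1 higher signal and 4 members at an adjusted p under 0.05. Its weights were lowest for cKO replicate 3 (0.244), control replicate 3 (0.380) and cKO replicate 2 (0.397). The weight of cKO replicate 1 was 2.83, so the cKO side of these calls rests mostly on that library. With no filter on low counts 1 osteoclast gene was lower, again *Oscar*, and the osteoclast median was 0.19, over 7 genes instead of 4. The replicate block gave 2 higher macrophage genes, and it changed no other count of members.

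Log2 fold changes near 0 changed sign. So did some that were not near 0 over all 6 libraries, among them *Il34* at 0.55 and *C1qc* at 0.34. By voom, *Csf1r* was at 0.047, *Cd68* at 0.11 and *Cd14* at -0.032. With the block *Adgre1* was at -0.070. Without replicate 3 of both groups *Csf1r* was at 0.13 and *Cd68* at 0.14. With each library left out in turn the ranges were -0.12 to 0.14 for *Csf1r*, -0.20 to 0.34 for *Adgre1*, -0.13 to 0.095 for *Cd68*, -0.076 to 0.38 for *Cd14*, -0.38 to 0.29 for *Aif1*, -0.41 to 0.041 for *Cx3cr1*, -0.0018 to 0.69 for *C1qc*, -0.025 to 0.62 for *Fcer1g*, -0.069 to 0.57 for *Tyrobp*, -0.018 to 0.67 for *Ptprc*, -0.091 to 0.42 for *Tnfrsf11a* and -0.034 to 0.92 for *Il34*. The cause was not tested. *Lgals3* was higher at the study's thresholds under every alternative run, at log2 fold changes from 0.82 to 1.60. Of 476 comparisons of named genes with an alternative, 416 kept their direction and their side of the thresholds. Counts of members were not moved by DESeq2, RLE, the strict filter or library sizes that omit the 100 highest genes. Over all genes, the 448 lower and 181 higher became 1109 and 458 with voom, 722 and 339 with the block, 597 and 338 with no filter, 1261 and 750 without replicate 3 of both groups, and from 282 to 1161 lower and 83 to 677 higher with 1 library left out. Depth limits *Ocstamp*, *Oscar*, *Atp6v0d2* and *Tnfsf11*, which have 16 or fewer counts in every library.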

Other observations

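Ratios between genes of the same library do not depend on how libraries are scaled. These ratios were chosen after their values were seen and were not tested. The count of *Ctsk* over that of *Acp5*, the collagen-cleaving protease and the phosphatase of osteoclasts, was 35.9, 37.8 and 39.2 in control and 26.0, 25.7 and 25.5 in cKO replicates 1, 2 and 3. The groups did not overlap, and within each group the 3 libraries lay close together. *Acp5* had only 114, 120 and 102 counts in control and 138, 140 and 163 counts in cKO libraries. Counting error alone is wider than the spread of the cKO ratios, so their closeness carries no weight. The share of other gene pairs with ratios that do not overlap was not determined. Ratios are of counts, not per length.

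Of 23 ratios of macrophage genes to *Csf1r*, 18, 21 and 17 (78.3%, 91.3% and 73.9%) were higher in cKO for replicates 1, 2 and 3. Among all genes tested the shares were 20.1%, 47.0% and 89.9%, so in replicate 3, where *Csf1r* itself was lower in cKO, the macrophage genes had the smaller share. *Cd163* over *Csf1r* was 0.158, 0.164 and 0.0674 in control and 0.340, 0.513 and 0.0841 in cKO libraries. *Lgals3* over *Csf1r* was 0.0211, 0.0166 and 0.0187 in control and 0.0376, 0.0652 and 0.0334 in cKO libraries. The low level of replicate 3 remained in the *Cd163* ratios and not in those of *Lgals3* in control.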
